A study of Mus musculus with 7 samples.

Results

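The genes described are the 10 whose products are the targets of gemcitabine and hydroxyurea or handle the nucleosides and deoxynucleotides that these drugs act on: Rrm1, Rrm2, Samhd1, Slc29a1, Dck, Cda, Dctd, Tyms, Tk1 and Dtymk. They were chosen by gene symbol for these roles, with earlier results of these data known. All 10 were found among the 52224 genes of the deposited table. Expression was measured by RNA-seq in 7 libraries of haematopoietic stem cells of wild-type C57BL/6J mice, sorted from bone marrow as LSK cells (lineage-negative, Sca-1+ and c-Kit+) that were CD150+ and CD48-. The cells were cultured for 48 h with gemcitabine at 0.5 µM (Gem, n = 2), with hydroxyurea at 100 µM (HU, n = 2) or with the solvent DMSO (n = 3). Sorting and culture were common to all groups, and no library of uncultured cells was analysed. The title of the series concerns DEK, a chromatin protein, in Fanconi anemia and replication stress, but all cells here were wild type. Whether libraries of 1 group stem from different mice or culture wells is not stated, so the p-values cover the spread among the 7 libraries alone, and that spread may be technical.

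Cells make deoxynucleotides by reducing ribonucleotides and by salvaging deoxynucleosides from outside. Ribonucleotide reductase, made of the large subunit RRM1 and the small subunit RRM2, does the reduction, and hydroxyurea stops it by quenching the radical that RRM2 carries. Gemcitabine is a deoxycytidine analogue that enters cells through nucleoside transporters such as SLC29A1 and is phosphorylated first by deoxycytidine kinase (DCK). Its diphosphate inactivates ribonucleotide reductase through RRM1, its triphosphate is built into DNA, and cytidine deaminase (CDA) and dCMP deaminase (DCTD) turn the drug and its monophosphate into deaminated products. Thymidylate is made from dUMP by thymidylate synthase (TYMS) or salvaged by thymidine kinase 1 (TK1), and thymidylate kinase (DTYMK) adds the next phosphate to the product of either route. RRM2, TYMS and TK1 are known as proteins that dividing cells make mainly around S phase.

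The promoters of Rrm1, Rrm2 and Dtymk are shown because they head the 2 target subunits and the 1 gene of the 10 called on the scaled values below. Each line gives the 150 bases before the RefSeq start (GRCm38.p6), written 5′ to 3′ on the gene's strand. Capitals mark CCAAT, which is a binding word of the factor NF-Y and reads ATTGG where it lies on the other strand, and the E2F-type words TTGGCGC and TTCCCGC. The stretches lie at chr7:102441545-102441694 (plus strand), chr12:24708104-24708253 (plus strand) and chr1:93801935-93802084 (minus strand).
Rrm1: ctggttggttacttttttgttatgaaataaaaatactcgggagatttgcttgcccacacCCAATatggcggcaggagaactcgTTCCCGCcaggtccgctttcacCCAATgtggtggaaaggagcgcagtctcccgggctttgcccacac
Rrm2: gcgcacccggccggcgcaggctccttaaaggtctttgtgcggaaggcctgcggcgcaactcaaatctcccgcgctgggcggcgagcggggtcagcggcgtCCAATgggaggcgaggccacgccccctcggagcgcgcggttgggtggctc
Dtymk: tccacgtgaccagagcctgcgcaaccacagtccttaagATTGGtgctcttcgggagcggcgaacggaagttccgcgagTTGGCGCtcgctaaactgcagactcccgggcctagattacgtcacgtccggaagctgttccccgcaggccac

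The Rrm1 stretch holds CCAAT at 91 and at 45 bases before the start, with TTCCCGC at 67 bases between them. Rrm2 holds CCAAT at 50 bases. Dtymk holds CCAAT on the other strand at 112 bases and TTGGCGC at 72 bases. Both strands of the 250 bases before each start were searched in 32851 RefSeq promoters, and the words were chosen after the sequences had been seen. CCAAT was found in 33.8% of all promoters and at a start of 5 of the 10 genes (Rrm1, Rrm2, Dctd, Slc29a1 and Dtymk). Either E2F-type word was found in 5.62% of all promoters and at a start of 3 of the 10 genes (Rrm1, Slc29a1 and Dtymk). With a further T in front, these words were found in 1.3% of all promoters and in none of the 10 genes' windows. TATAAA stood in 12.4% of all promoters and in none of the 10 genes' windows. All 10 genes matched a RefSeq promoter by symbol. Slc29a1 and Dctd have several RefSeq starts, which gives a word more chances to appear. These matches describe letters and not bound sites.

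Values are FPKM as deposited, which are fragments per kilobase of transcript scaled to a library's fragments, so levels can be set beside each other between genes. Whether all mapped fragments or only those on genes were the divisor is not given, and with all of them, fragments outside genes would lower every gene of a library. Dtymk was the highest of the 10 genes in every group, at a mean of 98.96 FPKM in Gem, 94.89 FPKM in HU and 158.2 FPKM in DMSO, above about 94% of the tested genes in each. Rrm2, Slc29a1, Rrm1 and Tyms followed in that order of means in every group. In DMSO each of these overlapped its neighbour in the order, so their order there was not larger than the spread. Tk1 and Samhd1 came next and changed places by their means, with Samhd1 above Tk1 in Gem and Tk1 above Samhd1 in HU and DMSO. Their libraries overlapped in Gem and in DMSO and did not overlap in HU, so their order in Gem and DMSO was not larger than the spread. Dck and Dctd formed a lower step, at 12.64 and 7.05 FPKM in Gem, 12.46 and 6.745 FPKM in HU and 17.91 and 11.17 FPKM in DMSO, and did not overlap each other in any group. Cda was close to 0. It had 0.14 and 0.19 FPKM in Gem, was listed at 0 in both HU libraries, and had 0.22, 0 and 0.40 FPKM in DMSO. The kinase that activates gemcitabine was thus measured in all libraries, while the deaminase that acts on the nucleoside was at 0.40 FPKM or less in all of them. Cda was below the filter and is the 1 gene of the 10 that was not tested, leaving 9 tested genes.

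**Figure D1:**
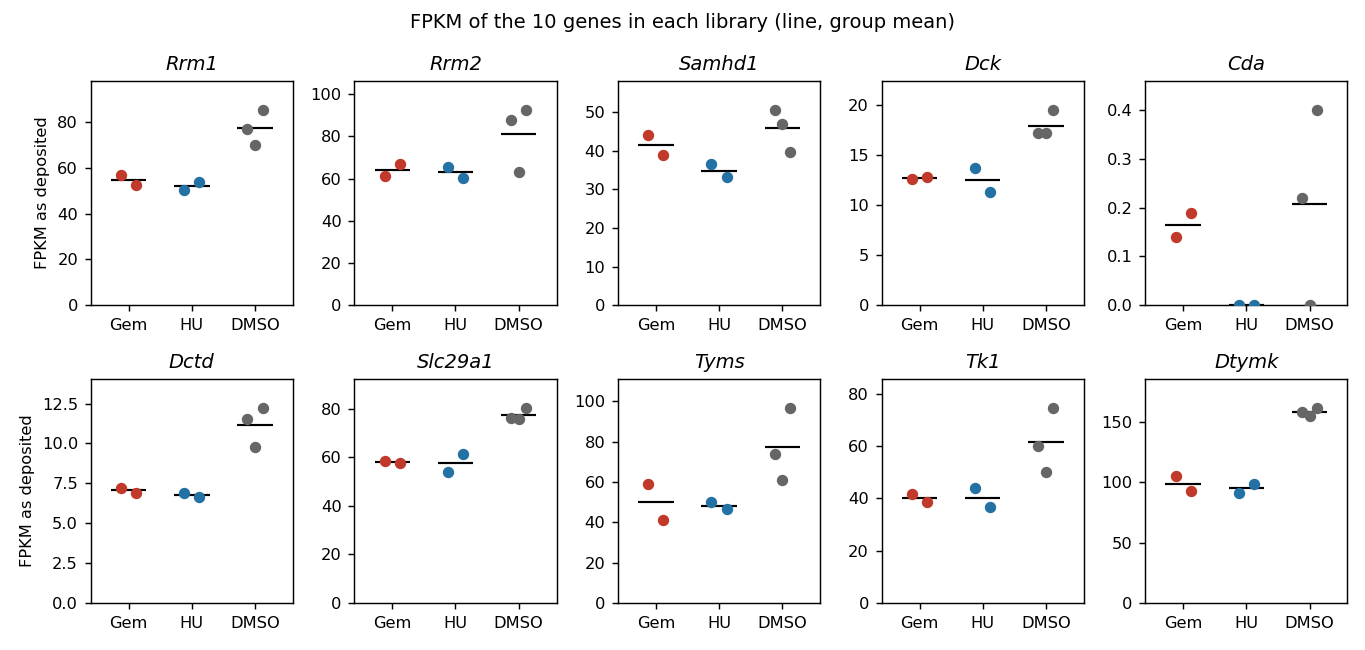
FPKM as deposited (linear axis from 0, scaled to each gene) of the 10 genes in the Gem (2), HU (2) and DMSO (3) libraries, where a point is a library and a line the group mean. All drug libraries lie below all DMSO libraries for Rrm1, Dck, Dctd, Slc29a1, Tyms, Tk1 and Dtymk, while Rrm2 and Samhd1 overlap with DMSO in at least 1 drug, and Cda stays at or below 0.40 FPKM.

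Before the comparisons, the libraries differed as wholes. FPKM summed over all genes to 703016 and 729258 in Gem, 647760 and 651315 in HU and 818775 to 832979 in DMSO. Olfactory and vomeronasal receptor genes, which serve as a background measure, were above 0 for 1002 and 1083 of 1998 in Gem, 1241 and 1275 in HU and 384 to 408 in DMSO. Over the whole table, genes above 0 numbered 29158 and 27887 in Gem, 31153 and 29687 in HU and 21251 to 23047 in DMSO. More low values were thus above 0 in the drug libraries. As deposited, the median log2 fold change of all 13865 genes tested was -0.25 in Gem and -0.30 in HU. The bulk of the tested genes was thus shifted downwards in the drug libraries, which does not hold for the lowest values. Trimmed-mean scaling, which centres the bulk of tested genes, brought these medians to 0.01 in each drug, and turned the split of higher and lower calls over all genes to 67 and 64 in Gem (208 and 3213 as deposited) and to 641 and 770 in HU (619 and 4922 as deposited). Both scales are therefore given for the 9 tested genes of the 10 and for most of the other handling genes named. Trimmed-mean scaling applies the same factor to all genes of a library, so it leaves a shift that differs with level. The share of the shift due to either drug was not tested. Of the sort markers, Kit (c-Kit) was at 28.98 to 48.22 FPKM and Ly6a (Sca-1) at 14.74 to 48.31 FPKM over all libraries, while Slamf1 (CD150) was at 0.41 to 1.25 FPKM. Cd48 was at 124.56 and 130.18 FPKM in Gem, 101.52 and 112.79 FPKM in HU and 201.73 to 223.44 FPKM in DMSO, which goes against a CD150+ CD48- profile at the time of RNA extraction. Of a list of 13 stem cell markers, 2 that the sort did not use, Fgd5 and Hoxb5, were below 1 FPKM in all. Others that the sort did not use were higher, with Procr at 9.06 to 17.04 FPKM over all libraries. Hlf was at 0.60 to 3.68 FPKM and Mecom at 0.18 to 1.71 FPKM. Granulocyte and monocyte markers (18 genes) summed to 50724 and 52915 FPKM in Gem, 47229 and 50754 FPKM in HU and 43223 to 48398 FPKM in DMSO, and most of the sum was Lyz2 (34347 and 35554 FPKM in Gem, 32469 and 36422 FPKM in HU, 21718 to 30761 FPKM in DMSO). Of these 18 genes 15 had a negative log2 fold change in each drug as deposited. As deposited 6 were called lower in Gem and 9 in HU and none higher, where 23.2% and 35.5% of all tested genes were called lower. Scaled, none was called in Gem, and in HU 1 was called higher (4.62% of all tested genes) and none lower (5.55%). Erythroid markers (10 genes) summed to 41.3 and 48.9 FPKM in Gem, 49.9 and 51.0 FPKM in HU and 75.5 to 122.5 FPKM in DMSO. Mast cell and basophil markers (8 genes, with Cma1 below 1 FPKM in all) summed to 255.2 and 439.8 FPKM in Gem, 231.4 and 236.8 FPKM in HU and 316.7 to 1417 FPKM in DMSO. The part that cell makeup has in the values of the 10 genes was not tested. The sequencing depth is unknown, and in bulk RNA fewer cells of a type and less RNA per cell cannot be told apart.

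The first question was whether the targets and handling genes differed after gemcitabine. As deposited, 6 of the 9 tested genes fell (Dtymk, Slc29a1, Rrm1, Dctd, Dck and Tk1) and none rose, where 23.2% of all tested genes fell and 1.5% rose (limma with Benjamini-Hochberg adjustment over all tested genes, call at an adjusted p below 0.05). All tested genes include many of low level. In a fit of the 8512 genes with a mean FPKM of at least 5, 3848 were called in either direction, and 7 of the 9 were called lower. After trimmed-mean scaling 0 of the 9 passed, against 0.462% of all tested genes called lower and 0.483% higher, although 2 had an unadjusted p below 0.05. The median log2 fold change of the 9 genes was -0.49 as deposited, beside -0.25 for all tested genes, and -0.19 after scaling, beside 0.01. With the Gem library numbered 2 left out, 0 of the 9 passed and the calls over all genes numbered 13, against 3421 with it. That fit holds 1 Gem library, which is assumed to vary like the libraries of the other groups. Without Gem 1 the log2 fold changes of the 9 ran from -0.87 (Tyms) to -0.22 (Samhd1). Without DMSO 1, 3 of the 9 were called lower, where 1525 of 13675 genes tested in that fit were called in either direction.

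The same question for hydroxyurea gave 8 of the 9 tested genes called lower as deposited, all but Rrm2, where 35.5% of all tested genes were called lower and 4.46% higher. In the fit of the 8512 genes with a mean FPKM of at least 5, 5069 were called in either direction, and 8 of the 9 were called lower. Scaled, only Dtymk of the 9 passed, where 5.55% of all tested genes were called lower and 4.62% higher. The median of the 9 was -0.56 as deposited and -0.21 scaled, beside medians over all tested genes of -0.30 and 0.01. Without DMSO 1 the count as deposited was 5, where 4025 of 13675 genes tested in that fit were called in either direction. The count also depended on single HU libraries. Without HU 2 the log2 fold changes of the 9 ran from -0.78 (Dtymk) to -0.28 (Rrm2). With the 4 drug libraries as 1 group against DMSO, 7 of the 9 were called lower as deposited (37.5% of all tested genes lower, 2.98% higher), which left out Rrm2 and Samhd1. Scaled, only Dtymk was called lower (3.86% of all tested genes lower, 2.34% higher).

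**Figure D2:**
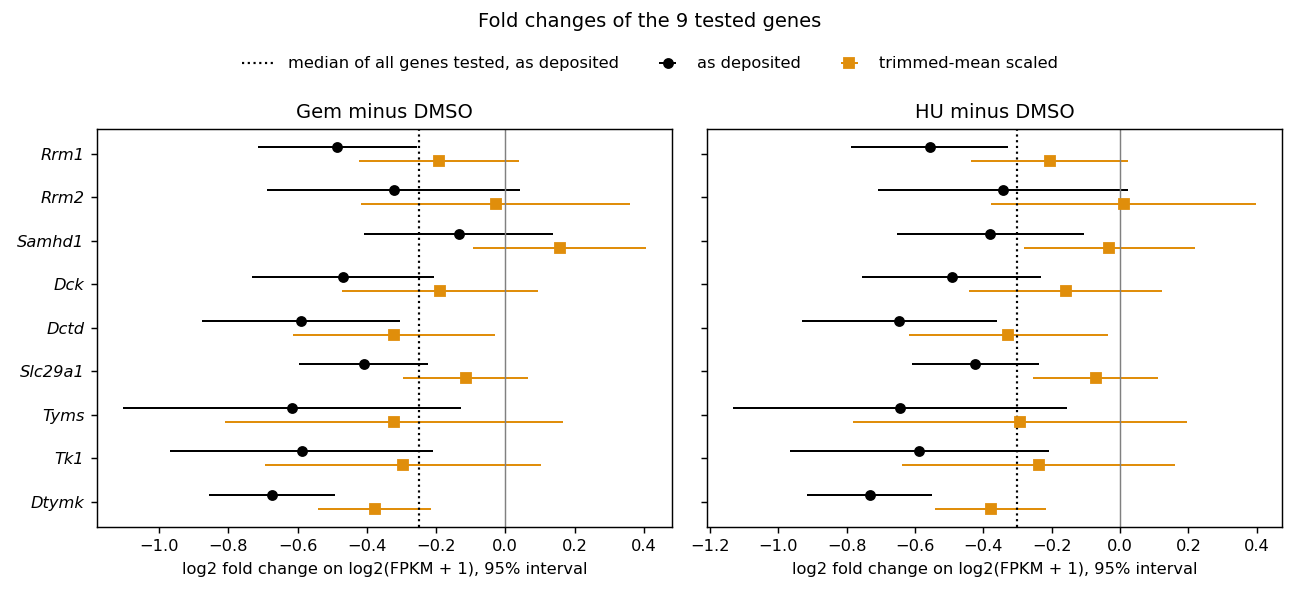
Log2 fold changes on the log2(FPKM + 1) scale with 95% intervals for the 9 tested genes, Gem minus DMSO at left and HU minus DMSO at right, as deposited (black circles) and after trimmed-mean scaling (orange squares). Dotted lines mark the medians of all tested genes as deposited, -0.25 and -0.30, and every gene lies further right after scaling, where only Dtymk in HU is called.

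The count of genes whose libraries do not overlap follows the same course. As deposited, both Gem libraries lay below all DMSO libraries for 7 of the 9 genes, where 50.4% of all tested genes did the same. Both HU libraries did so for 8 of the 9, where the share over all tested genes was 53.9%. After scaling these counts were 5 in Gem (17.9% of all tested genes) and 3 in HU (20.7%), namely Rrm1, Dctd and Dtymk in both drugs with Dck and Slc29a1 in Gem. None of the 9 lay above DMSO in all libraries of a drug on either scale, where 5.94% (Gem) and 8.24% (HU) of all tested genes did so as deposited and 17.7% and 20.9% scaled.

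Among the reductase subunits, Rrm1 (large subunit, chr7:102441695-102469771, plus strand, GRCm38) had 57.0 and 52.5 FPKM in Gem, 50.3 and 53.7 FPKM in HU and 76.9, 69.7 and 85.0 FPKM in DMSO. Every drug library lay below every DMSO library. The drug means were 70.9% (Gem) and 67.4% (HU) of the DMSO mean. As deposited the log2 fold changes were -0.49 ± 0.10 (SE) in Gem (limma adjusted p = 0.0147) and -0.56 ± 0.10 in HU (adjusted p = 0.00492). Scaled, they were -0.19 (limma adjusted p = 0.378) and -0.21 (adjusted p = 0.247), and the libraries still did not overlap with DMSO.

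Rrm2 (small subunit, the site of the radical that hydroxyurea quenches, chr12:24708241-24714146, plus strand) had 61.0 and 66.7 FPKM in Gem, 65.6 and 60.4 FPKM in HU and 87.6, 63.3 and 92.3 FPKM in DMSO. The DMSO library numbered 2 lay within the range of the drug libraries, and the other 2 lay above all of them. As deposited the log2 fold change was -0.32 ± 0.16 in Gem (limma adjusted p = 0.168) and -0.34 ± 0.16 in HU (adjusted p = 0.122), and after scaling it was -0.03 and 0.01, with 95% intervals of -0.42 to 0.36 and -0.38 to 0.40. Without DMSO 2 the values as deposited were -0.49 (limma adjusted p = 0.0253) and -0.51 (adjusted p = 0.00983), so 1 library set whether Rrm2 passed. The other small subunit, the p53-inducible Rrm2b, had 3.44 and 5.08 FPKM in Gem, 4.48 and 5.16 FPKM in HU and 3.78, 3.39 and 4.72 FPKM in DMSO. It was not called in either drug as deposited (0.07 in Gem and 0.24 in HU) or scaled (0.31 and 0.52, limma adjusted p = 0.482 and 0.152).

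Samhd1, which encodes a hydrolase that breaks down deoxynucleoside triphosphates (chr2:157097533-157135265, minus strand), had 44.1 and 38.9 FPKM in Gem, 36.5 and 33.2 FPKM in HU and 50.5, 47.1 and 39.8 FPKM in DMSO. Gem overlapped with DMSO, and both HU libraries lay below it. In Gem its log2 fold change was -0.14 ± 0.12 as deposited (limma adjusted p = 0.425) and 0.16 scaled (adjusted p = 0.506). In HU it was called lower as deposited, at -0.38 (limma adjusted p = 0.0365), and was -0.03 scaled (adjusted p = 0.891) and 0.08 after quantile normalization. The call was lost without DMSO 1, DMSO 2, HU 1 or HU 2 in turn (limma adjusted p = 0.0797 to 0.166).

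Slc29a1, the equilibrative transporter that carries nucleosides and gemcitabine across the membrane (chr17:45585200-45599606, minus strand), had 58.5 and 57.5 FPKM in Gem, 53.7 and 61.4 FPKM in HU and 76.2, 75.7 and 80.3 FPKM in DMSO. The drug libraries all lay below DMSO, and the DMSO libraries lay within 4.61 FPKM of each other. As deposited it fell by 0.41 on the log2 scale in Gem (limma adjusted p = 0.0133) and by 0.42 in HU (adjusted p = 0.00616). Scaled, the differences were -0.11 and -0.07 and did not pass (limma adjusted p = 0.506 and 0.624), and in HU the sign turned under quantile normalization (0.09) and under length and level correction (0.0240). An antisense gene, Gm17080, shares exonic bases with Slc29a1. It was at 0.71 FPKM or less in every library, and reads of the pair cannot be assigned by strand here.

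Dck, the kinase of the first activating step (chr5:88764996-88783281, plus strand), had 12.6 and 12.7 FPKM in Gem, 13.6 and 11.3 FPKM in HU and 17.2, 17.1 and 19.4 FPKM in DMSO. Every drug library was lower than every DMSO library. It fell by 0.47 in Gem (limma adjusted p = 0.0240) and by 0.49 in HU (adjusted p = 0.0123) on the log2 scale as deposited, and was at -0.19 and -0.16 scaled (limma adjusted p = 0.483 and 0.462). Dctd, the deaminase of dCMP (chr8:48099092-48153233, plus strand), had 7.18 and 6.92 FPKM in Gem, 6.87 and 6.62 FPKM in HU and 11.5, 9.78 and 12.2 FPKM in DMSO. It did not overlap with DMSO in either drug on either scale. Its log2 fold changes were -0.59 ± 0.12 in Gem (limma adjusted p = 0.0156) and -0.65 ± 0.12 in HU (adjusted p = 0.00621) as deposited. Scaled, they were -0.32 and -0.33 (limma adjusted p = 0.252 and 0.151). In Gem the calls of Dck and Dctd as deposited were lost without DMSO 1 (limma adjusted p = 0.0592 and 0.0556). For Cda (chr4:138338424-138367992, minus strand) a fit without the filter on low values gave adjusted p = 0.977 in Gem and 0.255 in HU (limma), on values too near 0 for a fold.

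Of the thymidylate genes, Tyms (chr5:30058202-30073617, minus strand) had 58.9 and 40.9 FPKM in Gem, 49.9 and 46.5 FPKM in HU and 73.7, 61.1 and 96.7 FPKM in DMSO. The drug libraries all lay below DMSO as deposited, but each drug overlapped with DMSO after scaling. Tyms had the widest spread of the tested genes within DMSO, with a coefficient of variation of 23.4%. As deposited it did not pass in Gem (-0.62 ± 0.21, limma adjusted p = 0.0682) and fell by 0.64 in HU (adjusted p = 0.0435), and scaled it was at -0.32 and -0.29 (limma adjusted p = 0.489 and 0.434). The call in HU was lost without DMSO 1, DMSO 3, HU 1 or HU 2 in turn (limma adjusted p = 0.0771 to 0.160). Its pseudogene Tyms-ps is listed at 0.6 FPKM in 1 HU library and at 0 in the others, and reads shared between the 2 make both values uncertain. Tk1 (chr11:117815526-117826092, minus strand) had 41.5 and 38.6 FPKM in Gem, 43.9 and 36.5 FPKM in HU and 59.8, 50.1 and 74.5 FPKM in DMSO. Tk1 fell by 0.59 in each drug as deposited (limma adjusted p = 0.0369 in Gem and 0.0251 in HU). Scaled, it was at -0.30 and -0.24 (limma adjusted p = 0.433 and 0.436). Its calls as deposited were lost in both drugs without DMSO 1 (limma adjusted p = 0.0875 in Gem and 0.0578 in HU). It shares exonic bases with Afmid on the other strand, which was at 1.14 to 2.21 FPKM.

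Dtymk (chr1:93792576-93801934, minus strand) had 105.2 and 92.8 FPKM in Gem, 91.5 and 98.3 FPKM in HU and 158.3, 154.9 and 161.6 FPKM in DMSO. The lowest DMSO library was well above the highest drug library, and the DMSO libraries varied by a coefficient of only 2.12%. The means were 62.5% (Gem) and 60.0% (HU) of the DMSO mean. Its log2 fold changes as deposited were -0.67 ± 0.08 in Gem (limma adjusted p = 0.00575) and -0.73 ± 0.08 in HU (adjusted p = 0.00120). After scaling they were -0.38 in each drug, with adjusted p = 0.0623 in Gem and 0.0191 in HU, and the 4 drug libraries together passed (-0.38, limma adjusted p = 0.0148). Dtymk was thus the 1 gene of the 9 called on the scaled values, in HU and in the drug libraries together. It did not pass in either drug under length and level correction, and as deposited its call in Gem was lost without Gem 2 (-0.58, limma adjusted p = 0.0563).

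The drugs were then compared with each other. None of the 9 genes was called between Gem and HU as deposited (limma), where 0.0216% of all tested genes were called higher in Gem and 0.0793% lower, and none had an unadjusted p below 0.05. Samhd1 had the largest difference, 0.24 ± 0.13 higher in Gem on the log2 scale, with a 95% interval of -0.05 to 0.54 (limma adjusted p = 0.534). The interval was -0.14 to 0.26 for Dtymk, -0.18 to 0.32 for Rrm1 and -0.51 to 0.56 for Tyms. These intervals bound the difference between the drugs, and they do not show that the drugs act alike. The doses were 0.5 µM of Gem and 100 µM of HU, at 1 time.

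Ratios between genes within a library depend little on how the library is scaled, unless a gene is near 0 as Cda is. Over the 4 drug and 3 DMSO libraries, 5 ratios were tested with an exact two-sided permutation test (35 splits). Rrm2 over Rrm1 was at log2 values of 0.10 and 0.34 in Gem, 0.38 and 0.17 in HU and 0.19, -0.14 and 0.12 in DMSO. Its mean was higher by 0.19 in the drug libraries, which overlapped with DMSO (exact permutation p = 0.229, adjusted 0.286 over the 5 ratios), and without DMSO 2 the difference was 0.09. Samhd1 over Rrm1 was at -0.36 and -0.42 in Gem, -0.45 and -0.68 in HU and -0.60, -0.56 and -1.08 in DMSO. DMSO 3 alone lay far down, the difference of 0.26 did not pass (exact permutation p = 0.114, adjusted 0.238), and without DMSO 3 it was 0.10. Dctd over Dck differed by -0.14 (exact permutation p = 0.143, adjusted 0.238) and by -0.09 without DMSO 1. Tyms over Tk1 differed by -0.04 (exact permutation p = 0.771, adjusted 0.771), and over leaving out each library in turn by -0.12 to 0.02, with the sign turned without Gem 2. Dck over Cda, the activating over the inactivating enzyme, differed by -0.33 (exact permutation p = 0.0857, adjusted 0.238). With Cda near 0 this ratio hardly depends on Cda, and it moves with the scale of the library as Dck does. Dck itself differed by -0.48 as deposited and by -0.17 scaled in the drug libraries together. The sign of the ratio turned with a pseudocount of 0.1 (0.12) and under quantile normalization (0.13). With 35 splits and adjustment over 5 ratios, 1 ratio alone could not pass, even with its drug and DMSO libraries fully apart. The lack of a pass therefore does not show that the ratios were unchanged. For 1 drug against DMSO, 10 splits allow no p below 0.1.

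**Figure D3:**
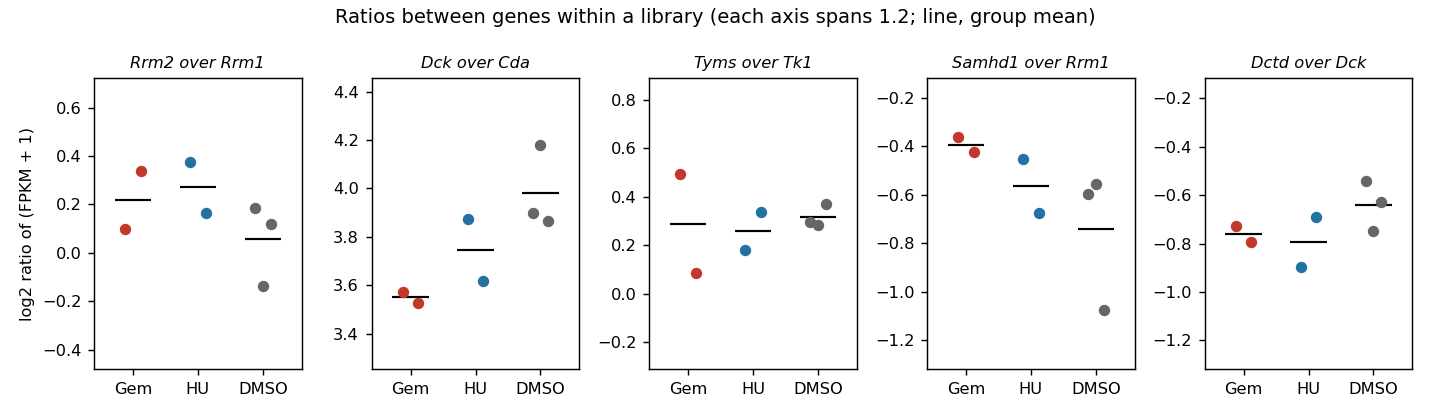
Log2 ratios of (FPKM + 1) between gene pairs within each library, in the Gem (2), HU (2) and DMSO (3) libraries, where a point is a library and a line the group mean. Every axis spans 1.2 log2 units, and none of the 5 drug differences passed the exact permutation test. After adjustment over the 5, 1 ratio alone could not have passed.

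The spread within DMSO had a pattern of its own, which was looked at after the values had been seen. DMSO 3 was the highest and DMSO 2 the lowest of the DMSO libraries for 8 of the 9 tested genes, where DMSO 3 was highest for 29.3% and DMSO 2 lowest for 30.1% of all tested genes. Samhd1 was the exception, with DMSO 1 highest and DMSO 3 lowest. DMSO 3 exceeded DMSO 2 by 0.65 on the log2 scale for Tyms, 0.56 for Tk1 and 0.54 for Rrm2, where the drug libraries together differed from DMSO by -0.63, -0.59 and -0.33. For Dtymk and Slc29a1 it was 0.06 and 0.08, where the drug differences were -0.70 and -0.42. Summed FPKM of 14 proliferation markers followed the same order, at 850.3 and 780.7 in Gem, 757.4 and 777.5 in HU and 1148, 1032 and 1217 in DMSO 1, 2 and 3. As deposited 7 of these markers were called lower in Gem and 9 in HU (23.2% and 35.5% of all tested genes), and scaled 0 and 1 (0.462% and 5.55%). The part that proliferation has in the values of Rrm2, Tyms and Tk1 was not tested.

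**Figure D4:**
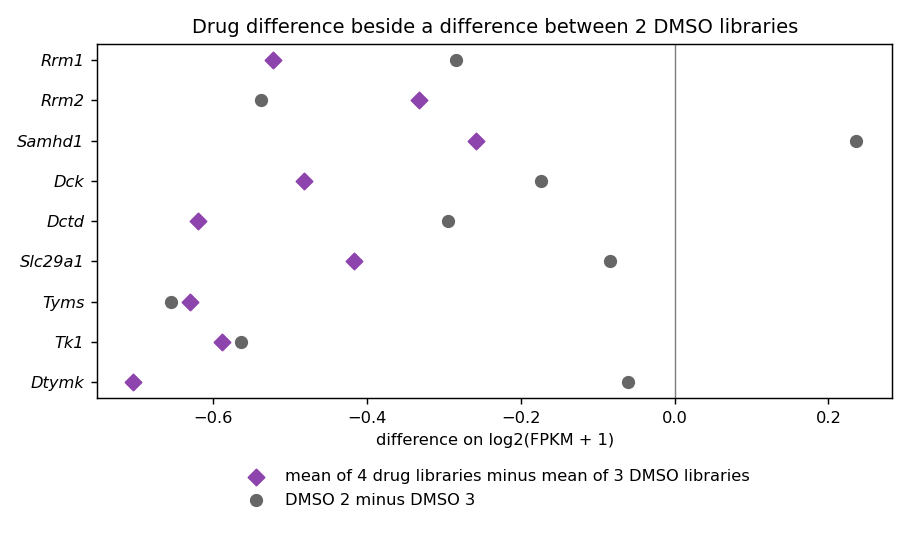
Differences on log2(FPKM + 1) as deposited for the 9 tested genes: the mean of the 4 drug libraries minus the mean of the 3 DMSO libraries (diamonds) and DMSO 2 minus DMSO 3 (circles). For Tyms, Tk1 and Rrm2 the circle lies left of the diamond or within 0.1 of it, while for Dtymk and Slc29a1 it lies within 0.1 of 0.

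By the smallest root mean square difference of centred log2(FPKM + 1) over the 7 libraries, among 7971 genes of mean FPKM of at least 5, the genes most like Rrm1 were Cdkn2aipnl (0.03), M6pr (0.04) and Hspd1 (0.04), where the median over all compared genes was 0.19. Those most like Rrm2 were Pi4ka (0.07), Gabpb2 (0.08) and Cdv3 (0.08), with a median of 0.23. Those most like Samhd1 were Havcr2, Arl10 and Ppp6c (0.04 each), with a median of 0.19. Pi4ka had 10.01 and 9.77 FPKM in Gem, 10.01 and 9.84 FPKM in HU and 13.17, 9.23 and 13.98 FPKM in DMSO, a likeness that its selection fixed. For Cda the measure gave Dpysl2, Nampt and Gbe1, but rests on values of 0.40 FPKM or less.

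Beyond the 10 genes, 49 of a list of 52 other genes of deoxynucleotide and nucleoside handling were tested. As deposited 22 were called lower in Gem and 27 in HU, and none higher in either drug; 22 were called in both, and the drugs share their DMSO libraries. Over all tested genes 23.2% were called lower in Gem and 35.5% in HU. Among the 8512 genes with a mean FPKM of at least 5, 3848 were called in either direction in Gem and 5069 in HU. Of the 37 list genes among them, 25 were called lower in Gem and 28 in HU. Scaled, 2 were called lower in Gem and 7 in HU, where the shares over all tested genes were 0.462% and 5.55%. The medians as deposited were -0.39 in Gem and -0.43 in HU, beside -0.25 and -0.30 over all tested genes. Without DMSO 1 the count in Gem was 14, where 1525 of 13675 genes tested in that fit were called in either direction. The count in Gem also depended on single Gem libraries. Of 23 genes of base synthesis and salvage, 12 were called lower in Gem and 20 in HU as deposited, and 0 and 3 scaled, to be read against the same shares over all tested genes.

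The lowest fold change of the list in each drug was that of Nme1, a nucleoside diphosphate kinase, one of the enzymes that make the triphosphates. It had 84.1 and 68.1 FPKM in Gem, 44.0 and 45.2 FPKM in HU and 153.9, 155.6 and 131.2 FPKM in DMSO, and its log2 fold changes of -0.94 in Gem and -1.69 in HU were called as deposited (limma adjusted p = 0.00575 and 0.00103) and scaled (-0.65 and -1.34, adjusted p = 0.0398 and 0.00253). Nme2, its closely similar neighbour with which reads may be shared, was at -0.53 and -0.95 as deposited and was called on the scaled values in HU (-0.59, limma adjusted p = 0.0120) and not in Gem (-0.23, adjusted p = 0.237). Guk1, the guanylate kinase, was at -0.85 in Gem and -0.76 in HU as deposited (limma adjusted p = 0.00582 and 0.00209), and scaled it did not pass in Gem (-0.56, adjusted p = 0.0550) and passed in HU (-0.42, adjusted p = 0.0368).

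Glrx and Txn1, whose products are electron donors of ribonucleotide reductase, were among the calls as well. Txnrd1 (thioredoxin reductase) and Gsr (glutathione reductase) of the same list are named after their values were seen. Txnrd1 was not called in either drug as deposited (-0.28 and -0.27, limma adjusted p = 0.183 and 0.1655). Gsr was called in HU (-0.25, limma adjusted p = 0.0352) and not in Gem (-0.10, adjusted p = 0.385). Scaled, both were above 0 in each drug and neither was called. Glutaredoxin, Glrx, had 58.0 and 59.3 FPKM in Gem, 57.5 and 51.0 FPKM in HU and 94.0, 93.3 and 95.1 FPKM in DMSO. It fell by 0.67 in Gem and by 0.79 in HU on the log2 scale as deposited, and scaled it passed in HU (-0.43, limma adjusted p = 0.0199) and not in Gem (-0.38, adjusted p = 0.0814). Thioredoxin, Txn1, fell by 0.39 in Gem and by 0.87 in HU as deposited. Scaled, it was at -0.09 in Gem (limma adjusted p = 0.612) and was called in HU (-0.51, adjusted p = 0.0123). Of the others named by the rule, Pnp (purine nucleoside phosphorylase, whose reads may be shared with its close copy Pnp2), Pfas (a step of purine synthesis) and Aprt (adenine salvage) were called lower in both drugs as deposited, at -0.51, -0.69 and -0.66 in Gem and -0.65, -0.87 and -0.85 in HU. Scaled, none of the 3 passed in Gem (-0.22, -0.41 and -0.36, limma adjusted p = 0.212, 0.126 and 0.124). In HU, Pnp did not pass (-0.30, limma adjusted p = 0.0504), and Pfas (-0.53, adjusted p = 0.0260) and Aprt (-0.50, adjusted p = 0.0208) did. Adssl1, an adenylosuccinate synthase, was at -0.39 in Gem and -0.26 in HU as deposited (limma adjusted p = 0.00855 and 0.0134) and at -0.09 and 0.09 scaled.

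**Figure D5:**
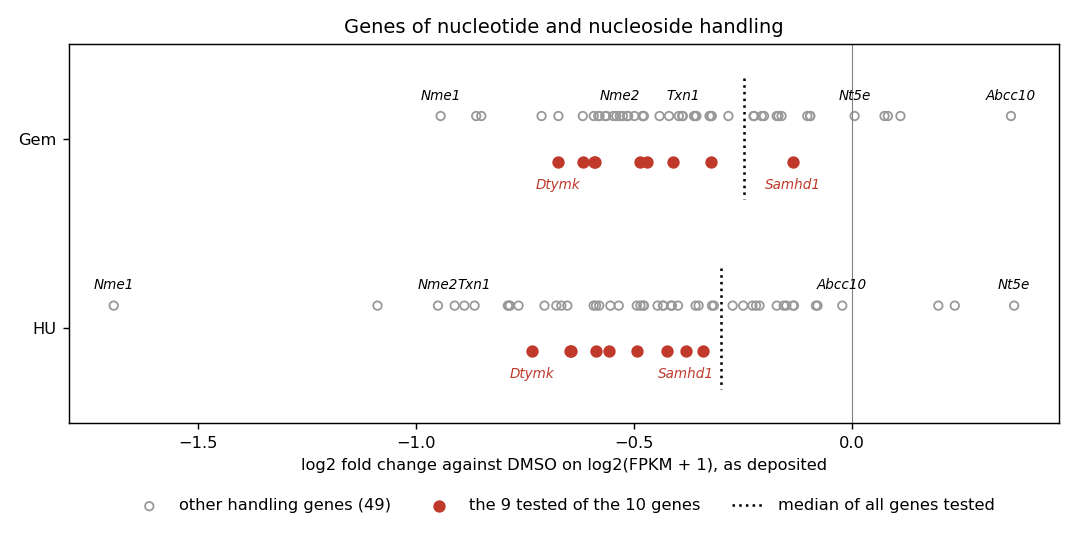
Log2 fold changes against DMSO as deposited for the 49 tested genes of the wider list (open circles) and the 9 tested genes of the 10 (filled circles), Gem above HU; both rows use the same DMSO libraries. Dotted lines are the medians of all tested genes, -0.25 in Gem and -0.30 in HU, and Nme1 lies lowest in each drug, at -0.94 and -1.69.

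The wider list holds 11 other transporters, of which 9 were tested, and those named here were chosen after their values had been seen. As deposited, Slc43a3, which carries nucleobases, was called lower in Gem (-0.55, limma adjusted p = 0.0317) and in HU (-0.55, adjusted p = 0.0197). Slc29a3, an equilibrative transporter of inner membranes, was called lower in HU (-0.45, limma adjusted p = 0.0202) and not in Gem (-0.17, adjusted p = 0.317). The other 7 were not called. The calls were thus 1 of the 9 in Gem and 2 in HU, where 23.2% and 35.5% of all tested genes were called lower. After scaling none of the 9 was called in either drug. The exporter Abcc5 had 59.7 and 69.3 FPKM in Gem, 62.8 and 77.5 FPKM in HU and 57.9, 55.6 and 69.3 FPKM in DMSO. Its log2 fold changes were 0.08 in Gem and 0.20 in HU as deposited, and 0.38 and 0.55 scaled (limma adjusted p = 0.236 and 0.0510). Slc29a2, the second equilibrative transporter, ranged from 1.29 to 3.23 FPKM over all libraries, far below Slc29a1. The concentrative transporter Slc28a3 had 0.46 and 0.56 FPKM in Gem, 1.34 and 0.94 FPKM in HU and 0.04, 0.04 and 0.06 FPKM in DMSO, and did not pass the filter. Without the filter it was at 0.53 in Gem (limma adjusted p = 0.167) and 1.03 in HU (adjusted p = 0.0157). Over the receptor genes used as background, the median of values above 0 was also higher in the drug libraries, at 0.09 and 0.11 FPKM in Gem, 0.14 FPKM in both HU libraries and 0.03 to 0.05 FPKM in DMSO, and its part in the Slc28a3 values was not tested.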

How the data were processed

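RNA of 7 libraries was sequenced; per the labels' protocols it was extracted with a miRNeasy kit, amplified by Geo-seq and made into libraries with a TruePrep kit, and strand is not stated. The authors deposited FPKM values for 52224 genes and 7 libraries, with 0 unused columns. The submitters' processing notes list, without roles, mm10, DESeq2, HTSeq, Cufflinks 2.1.1 and Bowtie 0.12.9; the tool and annotation behind the FPKM are not given in the sources used. Low values showed no usable step of 1 read (22.3% to 24.4% within 0.1 of whole steps, 20% by chance), so the depth is unknown and no counts were tested.

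The 13865 genes that reached 1 FPKM in 2 or more libraries were fitted by limma 3.58.1 (R 4.3.3) on log2(FPKM + 1), as 1 model of 3 groups with a mean-variance trend and 4 residual degrees of freedom; the 4 drug libraries against DMSO had their own model. Tests were two-sided, with Benjamini-Hochberg adjustment over all tested genes and calls below 0.05. Fold changes on this scale understate those of low genes. Ratios used exact permutation tests.

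Scaled values were divided by trimmed-mean factors computed on tested genes (30% of ratios and 5% of levels trimmed at each end). Length and level correction used loess (span 0.3) on exonic length in GENCODE M21 (GRCm38), known for 96.9% of tested genes. Other alternatives were the pseudocount, the filter, equal FPKM sums, quantile normalization, no trend, library weights, only the compared groups, leaving out each library (a group left with 1 library is assumed to vary like the others) and a replicate block. Replicate numbers were not taken as pairs. Scripts were tested on simulated data. Figures used Python 3.11.15 and matplotlib 3.10.9.

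The members and lists were chosen with earlier results of these data known. Named are all 10 members, at most 8 called genes per drug with the smallest p from the handling and base synthesis lists combined, and the 3 genes most like Rrm1, Rrm2, Samhd1 and Cda; others are said to be chosen after their values were seen. Of the genes this rule names, 1 is not reported here. Rrm2b was named as the other small subunit, after its values were seen. Promoters are from RefSeq (GRCm38.p6).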

Additional observations from a re-analysis of the deposited data

How the results depend on the processing

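How many of the 9 tested genes and of the 49 other handling genes were called depended on scaling and on single libraries; the cause was not tested. In Gem the 9 gave 6 calls as deposited, 3 with no filter (10 genes then tested), 1 with equal FPKM sums, and 0 with trimmed-mean scaling, quantile normalization, length and level correction, and the replicate block with trimmed-mean scaling. In HU they gave 8, then 5, 1, 1, 0, 0 and 0 under the same settings in that order. For the drug libraries together they gave 7 as deposited, 2 with equal sums, 1 with trimmed-mean scaling and 0 with the other 3 scalings. The other handling genes in Gem gave 22, then 12 with no filter, 4 with equal sums, 2 with trimmed-mean scaling, 0 with quantile normalization, 14 with no mean-variance trend, 0 with length and level correction and 2 with the block and trimmed-mean scaling. In HU they gave 27, then 9 with equal sums, 7, 3, 2 and 8 under the scalings in the same order. Leaving out each library in turn gave 0 to 8 (Gem), 4 to 8 (HU) and 7 to 8 (drug) of the 9, and 0 to 23 (Gem) and 20 to 27 (HU) of the other handling genes. Over all genes, Gem calls in either direction were 3421 of 13865 as deposited, 1509 of 39614 with no filter and 432 of 13865 with equal sums. They were 131 with trimmed-mean scaling, 67 with quantile normalization, 53 of 13440 with length and level correction and 112 with the block and trimmed-mean scaling. With no mean-variance trend they were 2132. HU calls were 5541 as deposited, 7161 with no filter and 1480 with equal sums. Under the 4 scalings in the same order they were 1411, 560, 182 and 918. Called values that turned sign were Samhd1 (0.0807) and Slc29a1 (0.0932) in HU and Slc29a1 in the drug libraries together (0.0314) with quantile normalization, and Slc29a1 in HU with length and level correction (0.0240). Gem against HU gave 0 of the 9 in every alternative run.

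With the replicate block 6, 8 and 7 of the 9 were called in Gem, HU and the drug libraries together; in Gem, Dck was lost (limma adjusted p = 0.0631) and Tyms gained (adjusted p = 0.0472). Deviations of same-numbered libraries from their group means correlated at -0.07 to 0.05 over the tested genes. In a group of 2 libraries these deviations mirror each other, so this says little about pairing. The numbers were not taken as pairs. With only 2 drug libraries a group and an unknown depth, small differences may go undetected.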
